A study of Mus musculus with 8 samples.

Results

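Glucose and lactate handling was examined in 35 genes that encode glucose transporters, the enzymes of glycolysis, the lactate dehydrogenases and monocarboxylate transporters, the pyruvate dehydrogenase subunits and their kinases, the enzymes that build and break glycogen, and G6pdx, where glucose enters the pentose phosphate pathway. The genes were chosen by symbol from a list, and all 35 had a row among the 24047 rows of the deposited gene counts. Of these, 33 had enough reads to be tested, as did 10954 genes in all. The RNA came from cells that were sorted for tdTomato from the somatosensory cortex of mice aged 23 to 25 days. Every mouse carried the Glast-CreERT2 driver, a tamoxifen-dependent Cre that acts in cells using the Glast (Slc1a3) promoter, and the Ai14 reporter, which leaves Cre-exposed cells and their descendants red, and every mouse received intraperitoneal tamoxifen (10 to 15 µL at 20 mg/ml) on postnatal days 12 to 14. The 4 control libraries, called WT, had no further allele named, and the 4 Ptch1cKO libraries came from mice homozygous for a floxed Ptch1, the gene for the receptor that restrains Hedgehog signalling. The labels do not say whether a library is 1 animal or a pool, so the p-values measure the spread between these libraries.

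Glycolysis splits glucose into pyruvate in the cytosol. Pyruvate is then either reduced to lactate, which leaves the cell through monocarboxylate transporters, or taken into mitochondria and oxidised by pyruvate dehydrogenase, which the Pdk kinases switch off. Astrocytes are known as the glycolytic, lactate-exporting and glycogen-storing cells of the brain, and the aldolase isoform Aldoc is so strongly theirs that it serves as a marker. Hypoxia-inducible factors bind a short core, ACGTG or GCGTG, in the promoters of many glycolytic genes.

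Total counts were 4061274 to 7206462 per library, and the deposited counts of the 33 tested genes ranged from a minimum of 11 reads for Slc16a1 to a maximum of 46070 for Aldoc in a single library. Ptch1, the targeted gene, had 285, 227, 491 and 425 counts scaled by library size (CPM) in the WT libraries and 219, 249, 168 and 258 CPM in the Ptch1cKO libraries. It was lower on average with overlapping groups, and it missed the 0.05 threshold by the edgeR quasi-likelihood test after Benjamini-Hochberg adjustment over all genes (log2 fold change -0.67 ± 0.22 SE; adjusted p = 0.349, edgeR). Reads from any part of Ptch1 enter this count, including those of a transcript without the floxed part. Astrocyte markers were abundant, with 3934 to 9015 TPM (a length-scaled level) summed over 10 genes. The sorted cells also held neuronal and oligodendrocyte transcripts, at 4869 to 7414 TPM over 11 neuronal markers and 7081 to 14219 TPM over 6 oligodendrocyte markers, and Snap25 and Mbp were the main ones at means of 4239 and 5571 TPM. Summed endothelial markers stayed at 2.07 to 9.85 TPM. A change in the make-up of the sorted cells and a change in RNA per cell cannot be told apart in such libraries. WT replicates 2 and 3 had at least 10 Xist counts, and the other 6 libraries had fewer. Exact tests were run on 14 library measures, which were total counts, genes with a count, the share of the ribosomal precursor Rn45s and 11 marker lists. The smallest p after Benjamini-Hochberg adjustment was 0.514 (two-sided, exact permutation test). A single measure with groups fully apart would get 0.4, so these tests could not call one measure alone and do not show that the groups were alike.

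Upstream sequences are shown for Gapdh and Gpi1, the members with the smallest p-values, and for Ldha, the textbook target of hypoxia-inducible factors in this group, to show how differently the core is represented in genes of 1 pathway. Each is the 250 bases before a transcription start in RefSeq on GRCm38.p6, read 5′ to 3′ on the gene's strand, and capitals mark the cores ACGTG and GCGTG on either strand, so that CACGT and CACGC mark the opposite strand and CACGTG holds a core on both.
Gapdh, chr6:125165774-125166023, minus strand: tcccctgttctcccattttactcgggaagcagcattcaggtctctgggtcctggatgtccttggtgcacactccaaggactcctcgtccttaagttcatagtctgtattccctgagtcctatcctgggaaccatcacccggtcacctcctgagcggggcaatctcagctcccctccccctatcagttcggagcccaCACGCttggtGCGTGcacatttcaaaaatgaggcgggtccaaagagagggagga
Gpi1, chr7:34230337-34230586, minus strand: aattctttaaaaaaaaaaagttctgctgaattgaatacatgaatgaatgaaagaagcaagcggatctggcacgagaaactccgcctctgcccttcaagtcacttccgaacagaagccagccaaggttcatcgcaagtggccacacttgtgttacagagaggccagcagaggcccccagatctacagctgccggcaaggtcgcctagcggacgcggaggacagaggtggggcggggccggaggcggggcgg
Ldha, chr7:46845554-46845803, plus strand: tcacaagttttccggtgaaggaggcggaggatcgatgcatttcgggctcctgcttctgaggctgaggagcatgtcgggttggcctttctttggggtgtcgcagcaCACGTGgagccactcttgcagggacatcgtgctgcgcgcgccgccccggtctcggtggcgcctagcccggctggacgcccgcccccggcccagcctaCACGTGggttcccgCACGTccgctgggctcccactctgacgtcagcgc

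The Gapdh sequence held 2 cores, the Gpi1 sequence 0 and the Ldha sequence 5. RefSeq lists another start for Ldha, and the 250 bases before it (chr7:46846832-46847081) held 1 core. RefSeq start sites were found for 33 of the 35 genes, in 50 windows from 250 bases before to 50 after a start. The core (ACGTG or GCGTG, both strands) was in 38 of the 50 windows, or 76% of them, against 43.8% of all 32817 promoter windows. The median GC content was 60.8% in the members' windows and 52.7% in all windows, and its part in the difference was not tested. The E-box CACGTG, which overlaps the core, was in 6 member windows, or 12%, against 7.15% of all. The Gli consensus TGGGTGGTC, on either strand, was in 0 of the 50 windows and in 0.253% of all windows. These matches describe letters and not bound sites.

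In length-scaled levels the tested members reached from a mean of 2.26 TPM for Slc16a1 to 8916 TPM for Aldoc, which alone made up 48.1 to 57.1% of the summed TPM of the 35 genes. All 35 genes together took 1.34 to 1.87% of the TPM of a library. Aldoc and Gapdh, the latter with a mean of 2564 TPM over the 8 libraries, were the 2 members above 1000 TPM. Another 12 had means between 100 and 1000 TPM, led by Aldoa at 768, Pfkm at 691 and Pgk1 at 608 TPM, 14 lay between 10 and 100 TPM, and 7 were below 10 TPM. The levels also depend on how well exome probes captured each gene. The neighbours Pygm, at 355 TPM, and Pdk2, at 340.4 TPM, had overlapping ranges over the libraries.

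**Figure D1:**
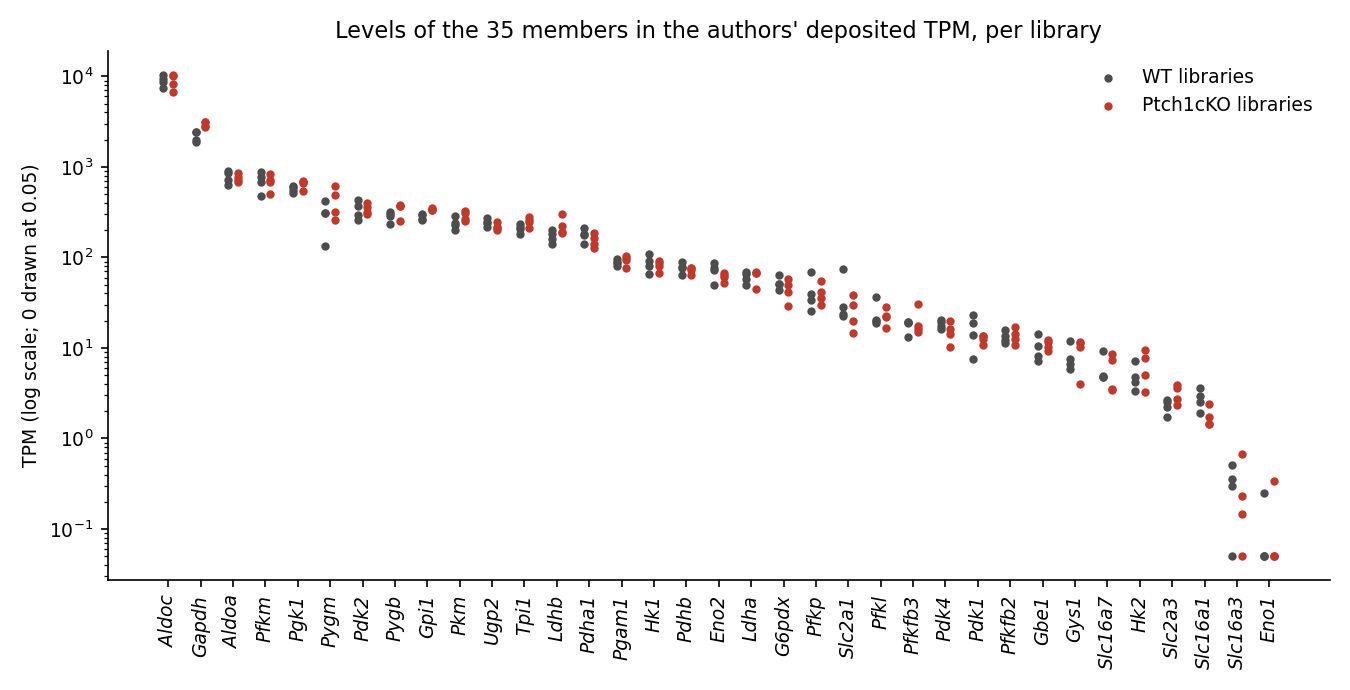
Levels of the 35 members in the authors' deposited TPM on a log axis, ordered by their mean over the 8 libraries; each point is 1 library, grey for WT and red for Ptch1cKO. Aldoc stands above Gapdh at the left, Slc16a3 and Eno1 lie at or near 0 at the right, and the colours overlap in most genes.

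The 2 members below the count filter were Eno1, the ubiquitous enolase, and Slc16a3, the lactate exporter MCT4. Eno1 had 0 or 1 read in each library. Of the 50-base windows of its longest GENCODE transcript, 70.5% also occur in the transcript of the retrogene Eno1b on chromosome 18. Eno1b itself had 0.336, 14.6, 14.7 and 12.1 CPM in the WT libraries and 24.0, 9.21, 0.738 and 1.32 CPM in the Ptch1cKO libraries, so libraries of both genotypes were near 0 and others were not. The treatment of reads that match both genes was not given in the sources used here, and the Eno1 row is not read as the level of the enzyme. Slc16a3 had 0 to 4 reads in a library, and no difference was detectable at this depth.

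Across the tested genes, no member passed over all genes, whereas the members' values were more often higher than lower in Ptch1cKO. A positive fold change was found for 25 of 33 members, or 75.8%, beside 49.6% of all genes tested. In the deposited TPM, where the median of all genes lay at -0.10, 18 of 33 members were positive, beside 36.0% of all genes, and 25 were above that median. The median log2 fold change was 0.15 for the members and -0.0019 for all genes. By edgeR 0 of 33 passed at a Benjamini-Hochberg adjusted p under 0.05, where 0.1% of all genes did. An unadjusted p under 0.05 was found for 7 members that were higher, beside 4.80% of all genes, and for 0 that were lower, beside 4.54% of all genes. The 7 were Gapdh, Gpi1, Ldhb, Tpi1, Pkm, Pygb and Pgk1, and Gapdh alone reached it in the deposited TPM, where 2.65% of all genes did as higher. On mm10, Gapdh lies at chr6:125161715-125166467, Gpi1 at chr7:34201330-34230336, Ldhb at chr6:142490249-142507957 and Tpi1 at chr6:124810586-124814296, all on the minus strand. Pkm lies at chr9:59656368-59679375, Pygb at chr2:150786735-150831758 and Pgk1 at chrX:106187100-106203699, on the plus strand. By CPM, all 4 Ptch1cKO libraries lay above all 4 WT libraries in 5 members, beside 2.52% of all genes. The reverse was seen in 0 members, beside 2.5%. In the deposited TPM, Gapdh and Gpi1 stayed apart, whereas Tpi1, Ldhb and Slc2a3 overlapped. Member folds reached from 0.708 to 1.54. In simulated data with 10969 genes tested, the edgeR test recovered 10% of genes changed 1.5-fold. The simulated data gave 128 calls, against 11 genes called in the real data, so the adjusted threshold was not equally strict in both. Recovery was summarised by fold alone and not by read count or spread. It therefore does not tell how often a difference in these members would be missed, and a member that did not pass may still differ. By DESeq2, which called 79 genes, 2 members passed as higher, Gapdh and Gpi1, where 0.331% of genes were called higher.

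**Figure D2:**
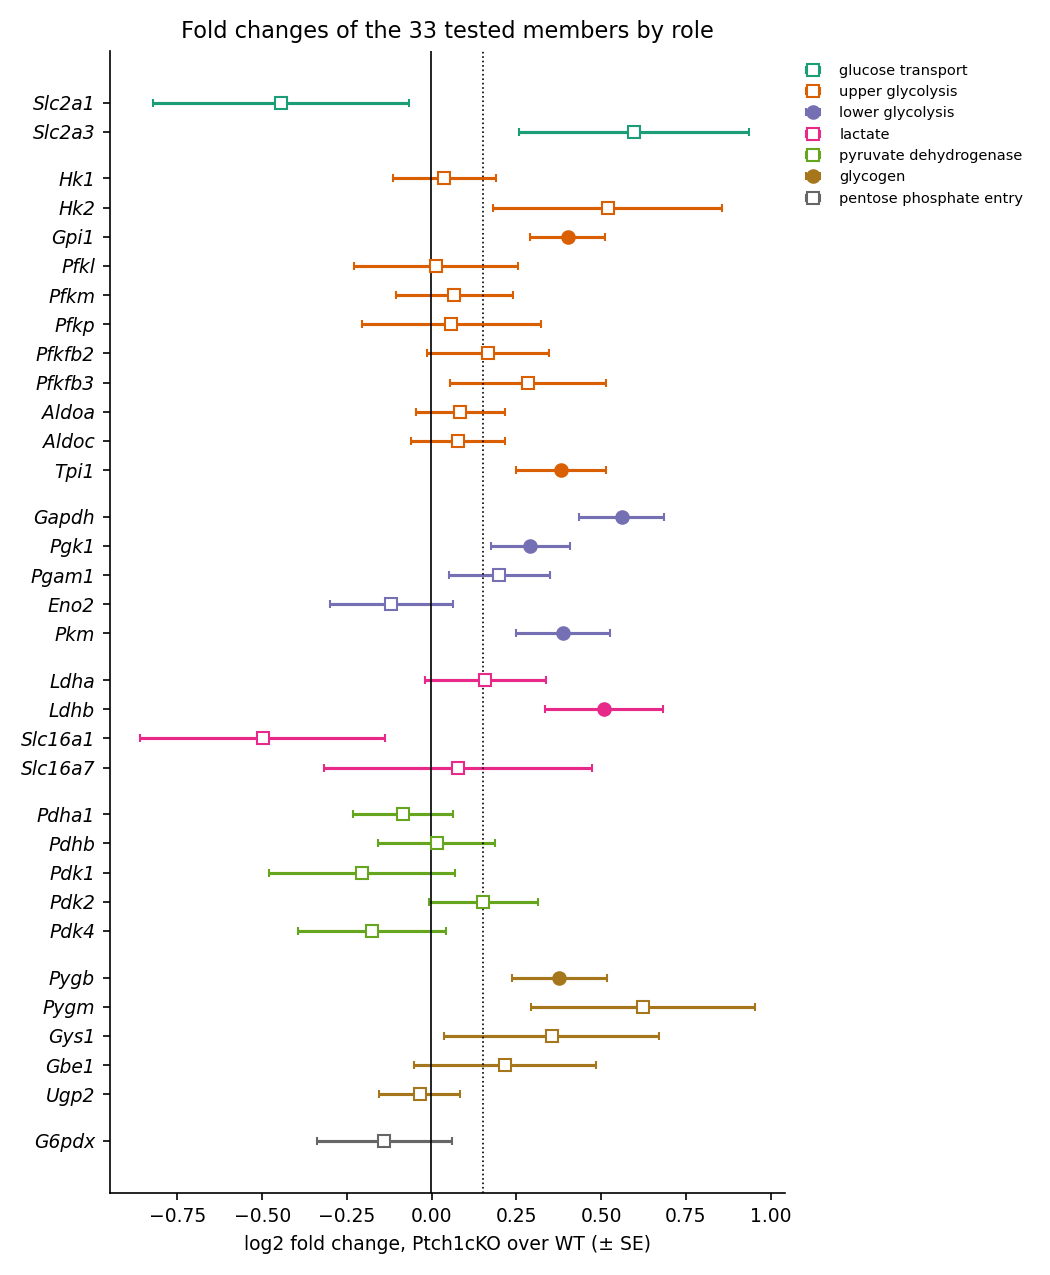
Log2 fold change of each tested member, Ptch1cKO over WT, with its SE, coloured by role; filled circles have an unadjusted p under 0.05 and open squares do not. The solid line is the median of all genes tested (-0.0019) and the dotted line that of the members (0.15); all 11 upper glycolysis genes lie right of 0 on this scale (6 did in the deposited TPM), and the filled circles are all on that side.

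The glucose transporters were low in these cells. Slc2a1, the GLUT1 transporter of the blood-brain barrier and of astrocytes, had 21.5, 22.0, 69.7 and 25.5 CPM in the WT libraries and 29.1, 19.3, 15.7 and 37.7 CPM in Ptch1cKO. WT replicate 3 stood apart from every other library, and the groups overlapped (log2 fold change -0.44 ± 0.38 SE; adjusted p = 0.779, edgeR). Without that library the log2 fold change turned to 0.15. Summed endothelial markers in WT replicate 3 were 4.43 TPM, within the range of the others. Its markers of mural cells had the highest mean log2(CPM + 1), at 2.16 against 1.23 to 1.86. Their summed TPM was 27.4, below the 35.9 of WT replicate 2. The part of vascular RNA in the Slc2a1 value was not tested. Slc2a3, the high-affinity GLUT3 of neurons, had 2.52, 3.77, 3.21 and 3.50 CPM across WT replicates 1 to 4, against 5.54, 4.17, 3.94 and 5.95 CPM across those of Ptch1cKO. The groups were apart in CPM and overlapped in the deposited TPM. These are 15 to 39 reads a library, and the test was not passed (log2 fold change 0.60 ± 0.34 SE; adjusted p = 0.628, edgeR).

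Among the 11 genes of upper glycolysis, which prime glucose and split it into triose phosphates, every log2 fold change was positive, from 0.01 for Pfkl to 0.52 for Hk2 (median 0.08). That count rests on small values: 6 of the 11 were positive in the deposited TPM, and 7 were without WT replicate 2. Hexokinase Hk1, which traps glucose in the cell, had 141 ± 26.4 CPM in the controls against 144 ± 14.2 CPM in the mutants (SD, n = 4). Pfkm, the main phosphofructokinase here, had 769 ± 181 and 805 ± 133 CPM (SD, n = 4). The astrocyte aldolase Aldoc had 5383, 4487, 6277 and 5483 CPM across WT replicates 1 to 4, against 6543, 5241, 4693 and 6359 CPM across those of Ptch1cKO, and both the highest and the second lowest of these libraries were mutants (log2 fold change 0.08 ± 0.14 SE; adjusted p = 0.914, edgeR). In the length-scaled table its log2 fold change was -0.04. Hk2, the inducible hexokinase, was above every WT library (highest 13.999 CPM) in Ptch1cKO replicates 1 and 3, at 20.02 and 17.96 CPM, and within their range in the other two. Pfkfb3, which makes the activator of phosphofructokinase, was above every WT library in Ptch1cKO replicate 1 alone, at 63.2 CPM.

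Gpi1, which turns glucose-6-phosphate into fructose-6-phosphate, had 276, 276, 309 and 301 CPM in the WT libraries and 372, 386, 399 and 377 CPM in Ptch1cKO. Every mutant library was above every control, and the spread within groups was the smallest of the tested members (pooled SD 0.07 on the log2 scale). The difference was 1.32-fold (log2 fold change 0.40 ± 0.11 SE; adjusted p = 0.287, edgeR; DESeq2, Benjamini-Hochberg adjusted p = 0.0401). Tpi1, the triose phosphate isomerase that interconverts the triose phosphates, had 124, 101, 116 and 127 CPM across WT replicates 1 to 4, against 147, 168, 139 and 156 CPM across those of Ptch1cKO. These groups were also apart in CPM (log2 fold change 0.38 ± 0.13 SE; adjusted p = 0.391, edgeR). In the deposited TPM they overlapped, with WT up to 233 TPM and Ptch1cKO from 213 TPM.

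Lower glycolysis, in which ATP and NADH are made, held the member with the smallest p-value. Gapdh, the dehydrogenase that forms NADH and a common reference gene, had 1304, 985, 1269 and 998 CPM across WT replicates 1 to 4, against 1737, 1541, 1711 and 1731 CPM across those of Ptch1cKO. The lowest mutant library was above the highest control, and the mean was 1.48-fold higher (log2 fold change 0.56, SE 0.12). It missed the threshold by edgeR (Benjamini-Hochberg adjusted p = 0.126) and passed by DESeq2 (Benjamini-Hochberg adjusted p = 0.0131) and by edgeR without the count filter (Benjamini-Hochberg adjusted p = 0.00384), where 0.505% of 20578 genes were called higher. Over the 16 alternatives its adjusted p lay between 0.00384 and 0.462.

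Pgk1, the X-linked kinase that makes the first ATP, had 409, 332, 362 and 370.2 CPM across WT replicates 1 to 4, against 467, 479, 405 and 450.4 CPM across those of Ptch1cKO. WT replicate 1 overlapped with Ptch1cKO replicate 3 (log2 fold change 0.29 ± 0.12 SE; adjusted p = 0.457, edgeR). Pkm, the pyruvate kinase of the final step, had 229, 213, 267 and 179.5 CPM across WT replicates 1 to 4, against 321, 261, 274 and 308 CPM across those of Ptch1cKO. WT replicate 3 reached into the mutant range (log2 fold change 0.39 ± 0.14 SE; adjusted p = 0.404, edgeR). Eno2, the enolase of neurons, was the member of this stage with a negative value, at 67.8 ± 14.5 CPM in the controls against 62.4 ± 7.77 CPM in the mutants (SD, n = 4). Neuronal markers had a mean log2(CPM + 1) of 7.51 ± 0.16 in the controls and 7.49 ± 0.16 in the mutants. Their summed TPM was 6244 ± 890 in the controls and 5353 ± 389 in the mutants (SD, n = 4). The part of neuronal RNA in the Eno2 value was not tested.

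**Figure D3:**
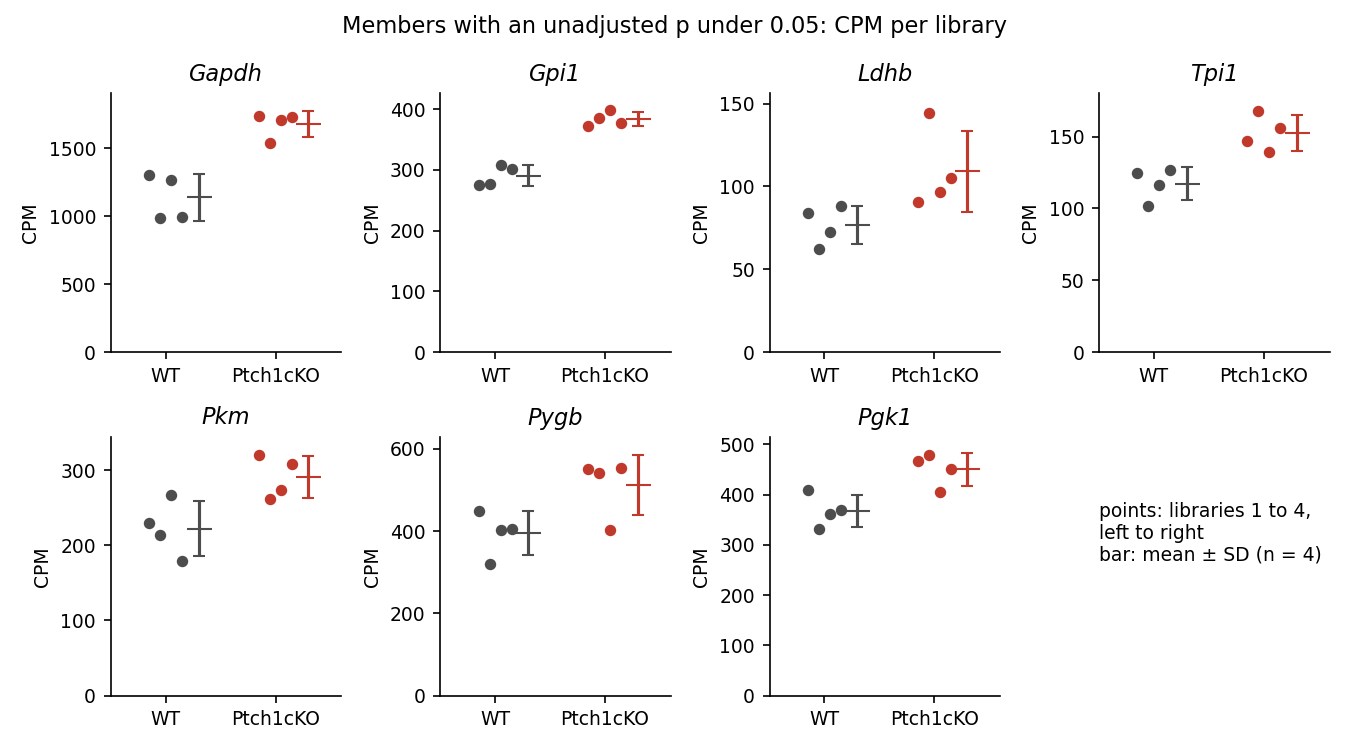
CPM per library, with the axis starting at 0, for the 7 members with an unadjusted p under 0.05, in order of p; points are replicates 1 to 4 from left to right, and bars are mean ± SD (n = 4). The groups are apart on this scale in Gapdh, Gpi1, Ldhb and Tpi1, and 1 library reaches into the other group in Pkm, Pygb and Pgk1. In the deposited TPM, Ldhb and Tpi1 overlap as well.

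Many of these enzymes have near-identical copies in the genome, which bears on how far a count belongs to the gene. Over 5% of the 50-base windows of the longest transcript were shared with a transcript of another gene in 6 of the 7 members with an unadjusted p under 0.05 and in 6 of the other 26 tested members. The share was 82.5% for Gapdh, 68.0% for Pgk1, 34.4% for Pkm, 27.0% for Ldhb, 19.3% for Gpi1 and 7.51% for Tpi1, whereas it was 0.337% for Pygb. Exons of 14 of the 35 members overlap a gene on the opposite strand, among them Gapdh with Iffo1, Tpi1 with Spsb2 and Gpi1 with Gm26762. Reads of such partners cannot be told apart where strand was not used, and the part of either in the differences was not tested.

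The lactate dehydrogenases convert pyruvate and lactate into each other. Ldhb, whose subunit favours the use of lactate as fuel, had 83.9, 62.5, 72.5 and 87.9 CPM across WT replicates 1 to 4, against 90.3, 145, 96.4 and 105 CPM across those of Ptch1cKO. The groups were apart by a small gap in CPM and overlapped in the deposited TPM. Ptch1cKO replicate 2 was the highest (log2 fold change 0.51 ± 0.17 SE; adjusted p = 0.384, edgeR). Ldha, whose subunit favours lactate formation and whose upstream sequence is shown above, had 41.4 ± 5.42 CPM in the controls against 46.1 ± 7.01 CPM in the mutants (SD, n = 4; log2 fold change 0.16, SE 0.18). The share of Ldhb in the summed TPM of both was 73.8 ± 1.98% in WT and 78.0 ± 3.77% in Ptch1cKO (SD, n = 4), a difference that missed the threshold (two-sided, exact permutation test, p = 0.114; 0.629 after Benjamini-Hochberg adjustment over 11 isozyme shares). The lactate transporters were scarce. Slc16a1, the lactate exporter MCT1, had 4.38 ± 1.0 CPM in the controls against 3.06 ± 0.729 CPM in the mutants, and Slc16a7, the neuronal uptake transporter MCT2, had 5.12 ± 1.81 and 5.45 ± 2.70 CPM (SD, n = 4).

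No member of the pyruvate dehydrogenase group had an unadjusted p under 0.05. Pdk2, the most abundant pyruvate dehydrogenase kinase here, had 246, 207, 346 and 286 CPM across WT replicates 1 to 4, against 258, 269, 336 and 344 CPM across those of Ptch1cKO, with overlapping groups (log2 fold change 0.15 ± 0.16 SE; adjusted p = 0.824, edgeR). The enzyme subunits Pdha1, X-linked, and Pdhb were at -0.08 ± 0.15 and 0.01 ± 0.17 on the log2 scale (fold change ± SE). Pdk1 and Pdk4, the kinases induced by hypoxia and by fasting, were at -0.20 ± 0.27 and -0.18 ± 0.22. G6pdx, the X-linked first enzyme of the pentose phosphate branch, had 49.6, 40.9, 60.9 and 45.9 CPM across WT replicates 1 to 4, against 49.3, 56.6, 31.7 and 41.2 CPM across those of Ptch1cKO, again overlapping (log2 fold change -0.14 ± 0.20 SE; adjusted p = 0.881, edgeR).

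Both glycogen phosphorylases, which release glucose units from the store, were higher on average in the mutant libraries. Pygb, the brain form, had 449, 321, 402 and 406 CPM across WT replicates 1 to 4, against 550.5, 542, 403 and 555 CPM across those of Ptch1cKO. Ptch1cKO replicate 3 lay among the controls, and the other mutant libraries were above all of them (log2 fold change 0.38 ± 0.14 SE; adjusted p = 0.421, edgeR). Pygm, the muscle form that astrocytes also make, had 325, 135, 429 and 302 CPM across WT replicates 1 to 4, against 345, 659, 308 and 524 CPM across those of Ptch1cKO. It had the highest fold of the members, 1.54, and also the widest spread after Slc2a1, and it did not pass (log2 fold change 0.62 ± 0.33 SE; adjusted p = 0.614, edgeR). The synthase Gys1 had 10.5 ± 3.29 CPM in the controls against 13.3 ± 4.82 CPM in the mutants, the branching enzyme Gbe1 10.8 ± 3.44 and 12.6 ± 1.51 CPM, and Ugp2, which makes the UDP-glucose that feeds glycogen, 271 ± 22.0 and 264 ± 20.0 CPM (SD, n = 4). Ptch1cKO replicate 3, the lowest mutant library in Pygb, Gys1, Aldoc and Pgk1, had the fewest counts and the lowest summed astrocyte markers (3934 TPM). Slc1a2 had the highest mean TPM of that list, at 3794. By mean log2(CPM + 1) the astrocyte markers of this library were at 8.22, above WT replicates 2 and 4 (8.09 and 8.19). Its summed microglial markers were the highest (701 TPM against 243 to 576 TPM in the others). The part of these measures in the values above was not tested.

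The 11 isozyme shares are given as a description, since their exact tests could not call 1 share alone. Phosphofructokinase was 91.1 ± 2.53% Pfkm in WT and 91.4 ± 0.65% in Ptch1cKO, and aldolase was 92.1 ± 0.56% and 91.9 ± 1.67% Aldoc (SD, n = 4). Pygm made up 48.8 ± 9.42% of the phosphorylase TPM in WT and 53.9 ± 6.996% in Ptch1cKO. Slc2a3 took 6.98 ± 2.99% of the 2 glucose transporters in WT and 11.5 ± 1.97% in Ptch1cKO, which had the smallest p of the 11 shares and rests on few Slc2a3 reads (two-sided, exact permutation test, p = 0.0571; 0.629 after adjustment). The smallest p that 70 assignments allow is 0.0286, which becomes 0.314 for a single share after adjustment over 11. The enolase share is void because the Eno1 row is near 0.

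**Figure D4:**
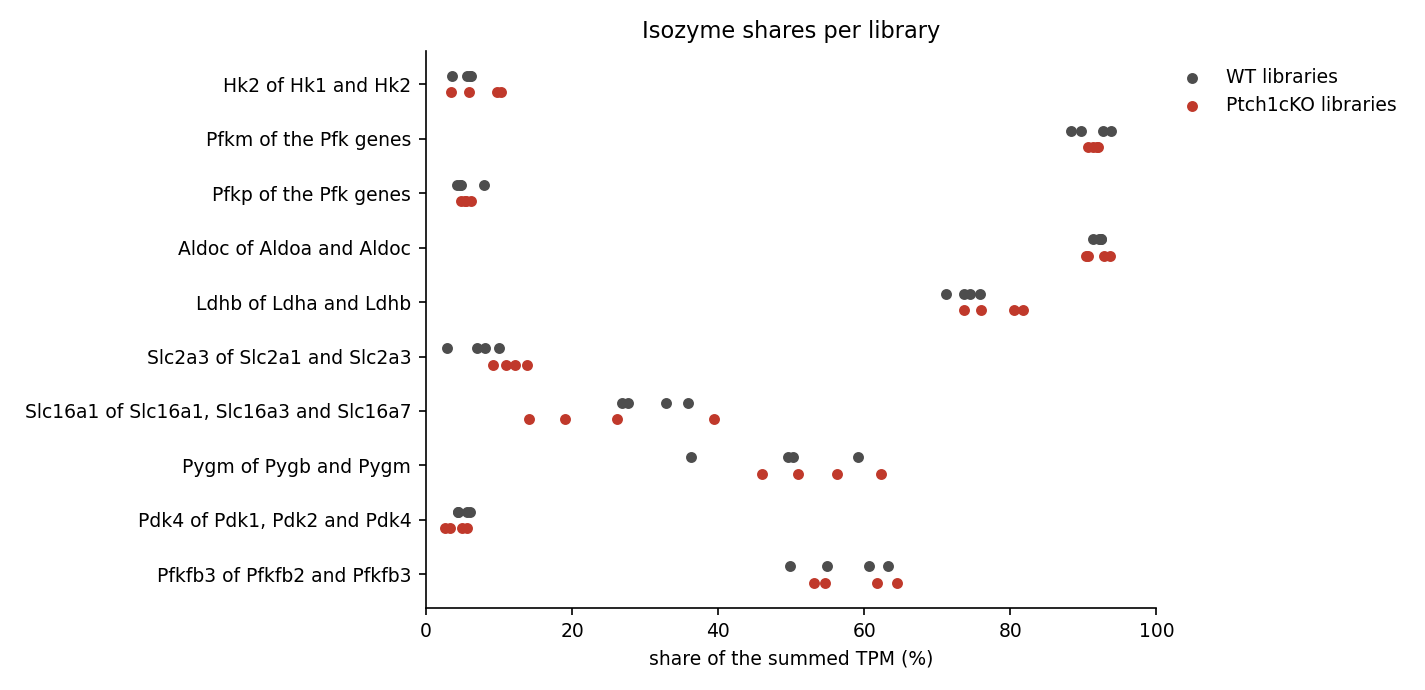
Share of 1 isozyme in the summed TPM of its family for 10 shares, in percent, with each point a library, grey for WT and red for Ptch1cKO. Pfkm and Aldoc hold 88.4 to 93.7% of their families in all libraries. The Ptch1cKO mean lies furthest to the right for Pygm, Slc2a3 and Ldhb (5.01, 4.56 and 4.22 percentage points). It lies furthest to the left for Slc16a1 (-6.12 points), and the groups overlap in each of these.

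Libraries differed from each other within a genotype as well. WT replicate 2 was the lowest of the 8 libraries in 17 of 33 members, and Ptch1cKO replicate 2 was the highest in 9 and Ptch1cKO replicate 1 in 7. Such counts were not made over all genes, so they do not show a trait particular to the members. WT replicate 2 also had the lowest mean log2(CPM + 1) of the astrocyte markers (8.09, against 8.19 to 8.65 in the others) and the highest summed oligodendrocyte markers (14219 TPM). The other measure of each list did not put it last or first. Its summed astrocyte markers (5366 TPM) were above those of Ptch1cKO replicate 3 (3934 TPM). Its mean log2(CPM + 1) of the oligodendrocyte markers (8.73) was below that of Ptch1cKO replicate 4 (8.89). The part of these markers was not tested. Without WT replicate 2, 19 of 33 members had a positive fold change, beside 49.5% of all genes, and the median was 0.08 for the members and -0.0035 for all genes. An unadjusted p under 0.05 was then found for 5 members, all higher, beside 4.64% of all genes.

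**Figure D5:**
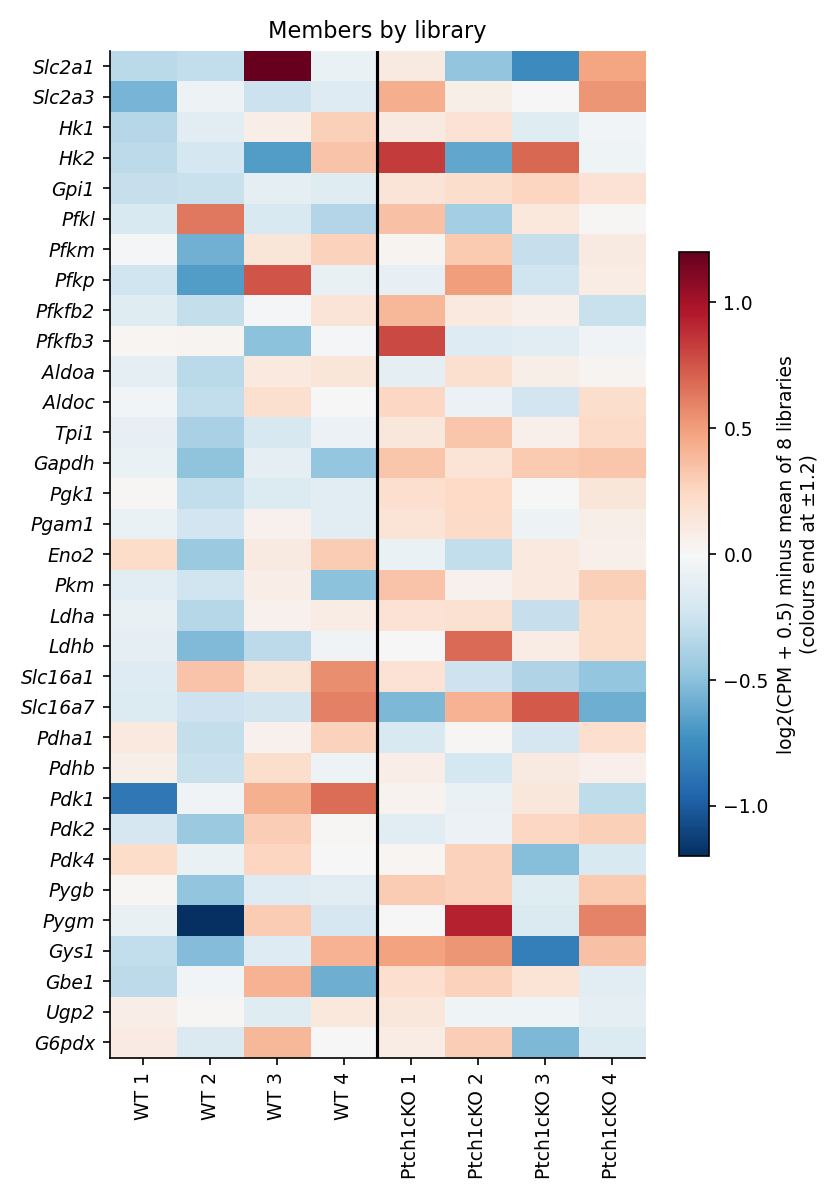
Log2(CPM + 0.5) of each tested member minus its mean over the 8 libraries, red above and blue below, with WT on the left of the line. WT replicate 2 is mostly blue, Slc2a1 is highest in WT replicate 3, and Gapdh and Gpi1 are blue in all WT and red in all Ptch1cKO libraries.

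The neighbouring pathways were read from lists of other genes, in which no gene passed over all genes by edgeR. Of all genes tested, 49.6% had a positive fold change, and 4.80% were higher with an unadjusted p under 0.05. Of 16 tricarboxylic acid cycle genes, 15 had positive fold changes (median log2 fold change 0.16), and Fh1, the fumarase, had the one unadjusted p under 0.05, at 41.8 ± 5.65 CPM in the controls against 56.6 ± 11.3 CPM in the mutants (SD, n = 4; log2 fold change 0.43, SE 0.19). Of 11 genes of mitochondrial pyruvate entry, 7 were positive (median 0.10). Pcx, pyruvate carboxylase, the anaplerotic enzyme of astrocytes, had 24.6 ± 10.3 CPM in the controls against 41.8 ± 6.95 CPM in the mutants (SD, n = 4; log2 fold change 0.77 ± 0.26 SE; adjusted p = 0.384, edgeR). The 4 tested pentose phosphate genes were all positive (median 0.24), 7 of 16 other glycogen genes were (median -0.05), as were 5 of 9 genes of the NADH shuttles (median 0.05) and both tested genes of gluconeogenesis (median 0.04).

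Of 18 genes of the hypoxia-inducible factor pathway and its targets outside glycolysis, 10 were positive (55.6%, beside 49.6% of all genes). Their median log2 fold change was 0.02. Vegfa, the vascular growth factor, and Egln2, an oxygen sensor, had unadjusted p-values under 0.05, at 0.64 ± 0.26 and 0.51 ± 0.21 on the log2 scale (± SE; adjusted p = 0.470 and 0.460, edgeR). Of all genes, 4.80% were higher at that unadjusted threshold. Among 9 regulators of glycolysis 5 were positive, and Mlx, the partner of the glucose-sensing Mondo factors, had 6.91 ± 2.23 CPM in the controls against 12.1 ± 2.48 CPM in the mutants (SD, n = 4; log2 fold change 0.81 ± 0.29 SE; adjusted p = 0.411, edgeR). Of 26 other isozymes and retrogenes 11 had enough counts, 5 were positive and none had an unadjusted p under 0.05. Of the Hedgehog readouts listed here, Hhip, an inhibitor that the pathway induces, had 2.04 ± 0.46 on the log2 scale (± SE; adjusted p = 0.146, edgeR), and Ptch1 is given above.

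Of the lists of cell types, all 10 microglial markers and 8 of 10 astrocyte markers had positive fold changes, with medians of 0.65 and 0.14. Positive values were also found for 4 of 11 neuronal and 5 of 6 oligodendrocyte markers, with medians of -0.07 and 0.26, beside 49.6% of all genes. Summed TPM of the astrocyte markers ran from 5366 to 8266 in WT and from 3934 to 9015 in Ptch1cKO. Those of the microglial markers ran from 243 to 513 and from 296 to 701 TPM, and those of the oligodendrocyte markers from 7081 to 14219 and from 8602 to 11323 TPM. The sums of the neuronal markers ran from 5299 to 7414 TPM in WT and from 4869 to 5678 TPM in Ptch1cKO. The part of these cells in the glycolytic values was not tested. The 6 libraries that had fewer than 10 Xist counts were 2 of WT (replicates 1 and 4) and 4 of Ptch1cKO. Among these libraries, 24 of 33 members were positive, beside 50.4% of all genes. An unadjusted p under 0.05 was found there for 3 higher members, beside 4.03% of all genes: Gapdh, Gpi1 and Pkm, at 0.55 ± 0.17, 0.41 ± 0.15 and 0.51 ± 0.17 on the log2 scale (± SE). X-linked Pgk1 was at 0.21 ± 0.16 there.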

How the data were processed

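The authors deposited raw counts of reads per gene symbol and a second table of TPM. Per the submitters' processing notes, bcl2fastq 2.18, STAR 2.5 and the build mm10 were used; the counting program, annotation and strand use were not given in the sources used here. Per the labels' protocols, cDNA from low-input RNA was enriched by exome capture, so levels of different genes also depend on capture. Columns were matched to samples by description. Counts were fitted in R 4.3.3 with edgeR 4.0.16 (filterByExpr with a minimum count of 10, TMM factors, robust quasi-likelihood F test, group as the only term, 8 libraries), with Benjamini-Hochberg adjustment over 10954 genes. CPM use TMM-scaled library sizes, and the SE is the log2 fold change divided by the square root of F. Alternatives were DESeq2 1.42.0, other scalings, no filter, the replicate block, single libraries left out, 6 libraries with under 10 Xist counts, and limma 3.58.1 on log2(TPM + 1) or log2(TPM + 0.1). Isozyme shares and library values were tested exactly over 70 assignments. On simulated data with 200 genes changed, 14 of 128 calls were false. Positions and shared windows come from GENCODE M21 on the same assembly, and promoters from RefSeq. Column prefixes group libraries only within a genotype, so any batch they mark cannot be told apart from genotype. Replicate numbers, which follow the sample titles, were not taken as pairs, since same-numbered libraries deviated from their group means with correlations of -0.166 to 0.018. The descriptions of Ptch1cKO replicates 3 and 4 read Ptch1KO4 and Ptch1KO5, so a pairing by descriptions was not checked for them. No 2 libraries of 1 genotype agreed within sampling noise. The members, gene lists and tests were chosen with earlier results of these data known. Members were described in full when called, when the unadjusted p was under 0.05, when groups did not overlap, or when they had the highest TPM of their role; related lists give up to 3 genes by p. Hk2, Pfkfb3 and the library counts of extremes were picked after their values were seen.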

Additional observations from a re-analysis of the deposited data

Results flagged for a closer look

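In 8 of 66 groups of 4 libraries, 1 library lay far from the other 3, and chance marks about 1 in 20 groups. In WT, Slc2a1 had 69.7 CPM in replicate 3 against 21.5 to 25.5 in the others, Pfkl 49.0 CPM in replicate 2 against 24.5 to 27.7, Pfkfb3 25.7 CPM in replicate 3 against 35.8 to 37.1, and Slc16a7 7.82 CPM in replicate 4 against 4.09 to 4.37. In Ptch1cKO, Pfkfb3 had 63.2 CPM in replicate 1 against 32.5 to 35.4, Gapdh 1541 CPM in replicate 2 against 1711 to 1737, Ldha 35.7 CPM in replicate 3 against 49.1 to 50.6, and Pygb 403 CPM in replicate 3 against 542 to 555. The low Gapdh library was still above every WT library.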

How the results depend on the processing

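With 11 genes called in all, the count was 79 by DESeq2, 199 without the count filter, 5 with the replicate block, 3 in the 6 libraries with under 10 Xist counts, 0 by limma on log2(TPM + 1) and 0 on log2(TPM + 0.1), where 1103 and 1080 genes had an unadjusted p under 0.05, and 1 to 19 with single libraries left out. Members called were 2 by DESeq2 and 1 without the filter, and 0 in every other alternative. Of the 7 members with an unadjusted p under 0.05, 6 had one with the block (Pgk1 did not), 3 in the 6 libraries and 1, Gapdh, by limma with either pseudocount, where the log2(TPM + 0.1) fit also had 1 lower member, Slc16a1. In either direction, 782 of 10954 genes had one with the block, against 1023 in the main fit. Both TPM fits left 18 members positive, but there the median of all genes shifted to -0.10 or -0.11, and 25 and 24 members lay above it. All 7 had positive fold changes under all 16 alternatives. Gapdh passed by DESeq2 (log2 fold change 0.56) and without the filter (0.57), and Gpi1 by DESeq2 (0.40). Directions turned for Aldoc (-0.0427 in both TPM fits, -0.0012 to 0.16 with single libraries left out) and Slc2a1 (0.12 in the 6 libraries, -0.69 to 0.15 with single libraries left out); the cause was not tested. In percentage points, isozyme differences with single libraries left out were -0.81 to 0.31 for Aldoc, -0.13 to 0.12 for Eno2, -1.08 to 3.38 for Pfkfb3, -0.59 to 1.21 for Pfkm and -0.36 to 0.88 for Pfkp, and in the 6 libraries 0.027 for Aldoc and -1.77 for Pfkm. With 15 assignments of the 6 libraries the exact p cannot fall below 0.0667, so no share could pass there. Few reads limit Eno1, Slc16a3, Slc16a1, Slc16a7 and Slc2a3, none with more than 39 in a library.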
